A study of Mus musculus with 45 samples.

Results

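The step from 1 to 2 h of bicuculline (Bic) was measured as the change in mRNA level of every gene between 5 libraries harvested after 2 h Bic and 5 libraries harvested after 1 h Bic, none of which received a later drug. These 10 libraries were taken from 45 in the series (9 conditions with 5 libraries each), and every library came from cultures of hippocampal primary neurons of newborn C57BL/6N mice treated on day in vitro 10 or 11. Both groups received 50 µM Bic, which blocks GABA type A receptors, releases excitatory networks from inhibition and drives action potential (AP) firing. The 5 culture preparations, numbered 1, 3, 6, 7 and 8, each gave 1 library per condition, so that every 2 h library was compared with the 1 h library of its own preparation. Untreated controls, 0.5 h Bic, and 1 h Bic followed by 1 h with added tetrodotoxin (TTX, 1 µM), a sodium channel blocker that ends AP firing, served for comparison. The cultures were mixed. They were first grown with B27 and serum, were given AraC, which kills dividing cells, on the third day, and were moved to another neuronal medium before treatment.

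AP firing opens NMDA receptors and voltage-gated calcium channels, and the calcium signal activates transcription factors that are already present in the neuron, among them CREB, SRF and MEF2. These switch on immediate early genes, many of which encode further transcription factors such as Fos, Npas4 and the Egr and Nr4a families. A later wave of genes encodes secreted factors, synaptic scaffolds, signaling enzymes and inhibitors of the pathway itself, which change how the neuron signals.

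The libraries held 17229802 to 44206367 counted reads after 1 h Bic (median 26689723) and 18846520 to 42692080 after 2 h Bic (median 26239614). Neuronal markers were abundant, and the summed levels of 8 excitatory markers spanned 76984 to 91571 normalized counts at 1 h and 78318 to 93302 at 2 h. The 8 microglial markers summed to 195 to 308 at 1 h and 207 to 316 at 2 h, and none of the 6 tested changed. Astrocyte markers summed to 31091 to 49660 at 1 h and 34645 to 49540.0 at 2 h. Of the 9 astrocyte markers only Sox9 was called (log2 fold change 0.16 ± 0.050, adjusted p = 0.026), a call lost without the block (adjusted p = 0.75) and without preparation 1, 3 or 6, and none of 7 tested vascular markers did. Normalized counts here are reads scaled to a common library size with TMM factors. They are not corrected for transcript length, so they compare libraries and not genes.

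Of 15330 genes tested, 1686 rose from 1 to 2 h Bic (11.0%) and 1921 fell (12.5%; edgeR's quasi-likelihood test with the preparation as a block, adjusted p under 0.05). The changes were mostly small, with median log2 fold changes of 0.28 among the genes that rose and -0.28 among those that fell, against 0.0073 over all genes tested. The large changes were mostly rises. Among called genes, 109 rose more than 2-fold and 22 fell more than 2-fold, and at a log2 change of 0.5 the numbers were 428 and 337. More reads lay behind the rises, with a median of 1724 normalized counts, than behind the falls, with a median of 595, where the median over all genes tested was 613. These counts also reflect transcript length. In 1516 of the genes that rose and in 1742 of those that fell, all 5 preparations moved the same way. All 2 h libraries lay above all 1 h libraries for 681 tested genes (4.44%), and 653 of these were among the rises. All 2 h libraries lay below all 1 h libraries for 921 genes (6.01%), and 882 of these were among the falls. Without the preparation as a block, 792 genes rose and 976 fell in the same libraries.

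**Figure D1:**
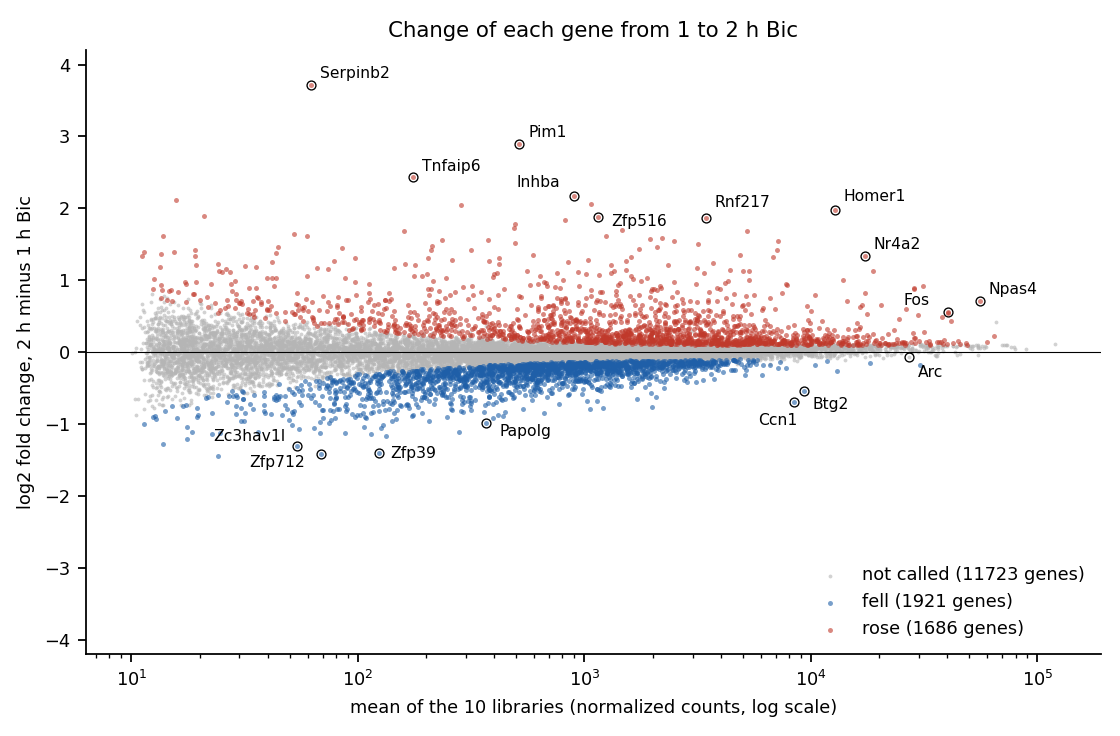
Each point is 1 of the 15330 genes tested. The x axis gives the mean of the 10 libraries (normalized counts, log scale) and the y axis the fitted log2 fold change, 2 h minus 1 h Bic. The 1686 genes that rose are red, the 1921 that fell are blue and the others are grey. Rises reach 3.72 (Serpinb2), whereas the named falls end at -1.41 (Zfp712). Npas4 and Fos rose at high counts and Arc lies close to the zero line.

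The 15 rises named by size encode a protease inhibitor, a kinase, secreted factors, a synaptic scaffold and regulators of transcription, and the 2 h libraries lay above the 1 h libraries for all 15. The largest fold was that of Serpinb2, a member of the serpin family of protease inhibitors (ENSMUSG00000062345, chr1:107511423-107535478, plus strand, GRCm38). Its 1 h libraries held 5.52, 1.97, 5.05, 2.39 and 36.3 normalized counts in preparations 1, 3, 6, 7 and 8, and its 2 h libraries 98.7, 94.7, 95.7, 184 and 94.5 in the same order. Every 2 h library was above every 1 h library, and preparation 8 was already high at 1 h. The log2 fold change was 3.72 ± 0.37 (SE; adjusted p = 8.4e-07, edgeR) on means of 10.2 ± 14.7 and 113 ± 39.2 (SD, n = 5), and it was 4.91 when preparation 8 was left out. At so few reads after 1 h the fold is imprecise.

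Pim1, a serine/threonine kinase that promotes survival and growth in many cell types, rose with much smaller error (chr17:29490753-29496112, plus strand). It held 103, 93.5, 93.9, 141 and 192 normalized counts after 1 h and 968, 690.4, 859.7, 949 and 1074 after 2 h, a log2 fold change of 2.90 ± 0.088 (adjusted p = 3.5e-13). The lowest 2 h library was above 3 times the highest 1 h library, and the untreated level was 60.9 ± 9.90 (SD, n = 5). Tnfaip6, a secreted protein that binds hyaluronan, went from 55.2, 38.4, 71.5, 58.5 and 49.5 to 306, 334, 337, 311 and 183 normalized counts (log2 fold change 2.43 ± 0.12, adjusted p = 2.2e-10), with preparation 8 lowest at 2 h.

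Inhba, which encodes the subunit of activin A, held 305, 322, 350.2, 370.4 and 271 normalized counts at 1 h and 1492, 1213, 1579, 1578 and 1519.7 at 2 h. The groups did not overlap, the untreated level was 241 ± 13.9, and the step was 2.17 ± 0.066 on the log2 scale (adjusted p = 3.5e-13; chr13:16011851-16031621, plus strand). Homer1, whose short activity-induced form loosens the postsynaptic scaffold built by its long forms (chr13:93299635-93405129, plus strand), rose in every preparation. Its libraries held 4941, 3923, 5666, 5629 and 5761 normalized counts at 1 h and 23228, 17709, 19746, 20978 and 20204 at 2 h. This was a log2 fold change of 1.98 ± 0.058 (adjusted p = 2.9e-13), and the gene counts do not tell its transcript forms apart.

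Rnf217, an E3 ubiquitin ligase, had the smallest relative error among the 15. It held 1402, 1312, 1651, 1636 and 1330.5 normalized counts at 1 h and 6134, 4686, 5680.5, 5487 and 4967 at 2 h, a log2 fold change of 1.87 ± 0.050 (adjusted p = 1.2e-13). The zinc finger gene Zfp516 rose by a similar amount, from between 433 and 571 normalized counts at 1 h to between 1622 and 2003 at 2 h (1.88 ± 0.054). Among the other 8 were the FERM domain gene Frmd6 (2.06 ± 0.069), the centriole duplication factor Stil (2.05 ± 0.11), the histone deacetylase complex subunit Sap30 (1.84 ± 0.090) and the cell cycle and transcription regulator Sertad1 (1.78 ± 0.090). The opioid precursor Penk rose by 1.73 ± 0.086, the nuclear protein Csrnp1 by 1.70 ± 0.067, the collagen gene Col10a1 by 1.69 ± 0.15 and the stress-responsive transcription factor Atf3 by 1.69 ± 0.10.

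**Figure D2:**
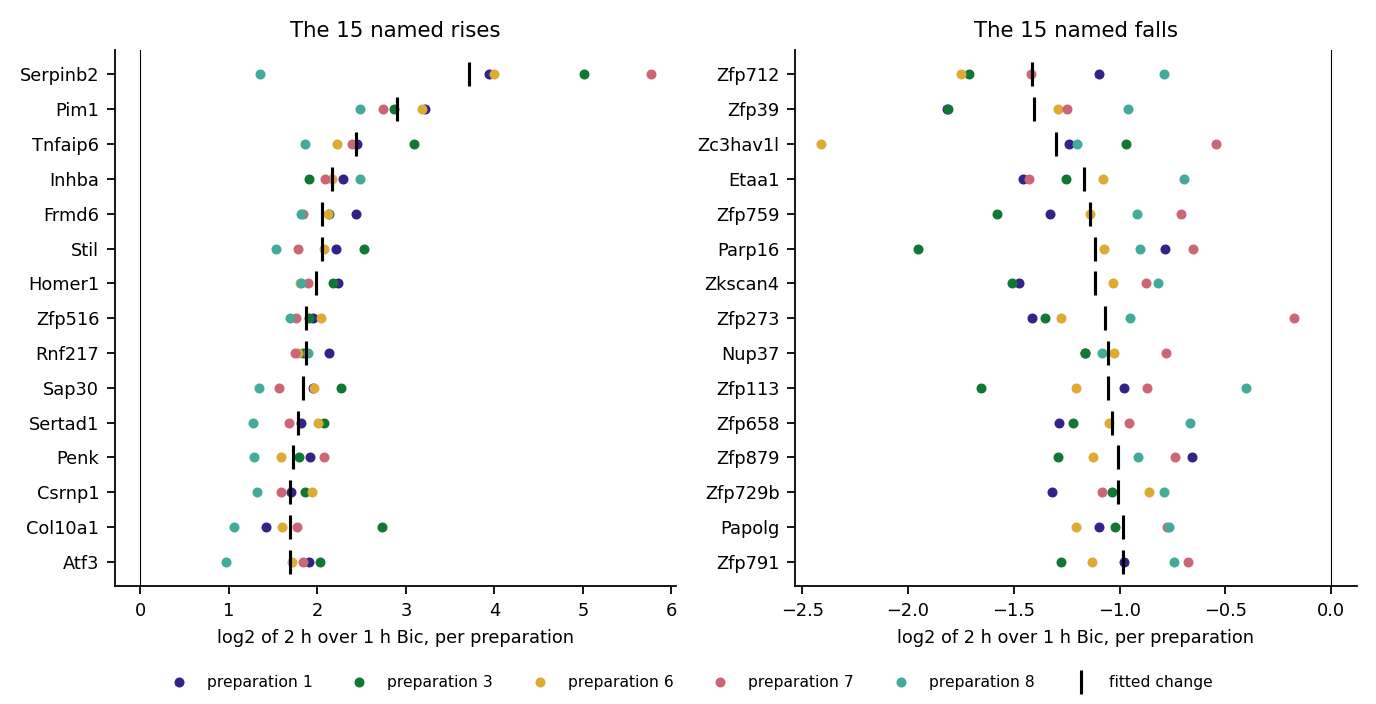
The x axes give the log2 ratio of the 2 h to the 1 h library of the same preparation (normalized counts + 1), for the 15 named rises and the 15 named falls. Points are the 5 preparations and black bars are fitted changes. Genes were named only if all 5 preparations moved the same way, so the shared direction was set by the choice. Preparation 8 had the smallest rise for 12 of the 15 genes.

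Preparation 8 gave the smallest step for 12 of these 15 rises and for 8 of the 15 largest falls. When each preparation was left out in turn and the called genes were read in the one left out, 90.8% to 96.4% moved in the fitted direction. The median step of the genes called up was 0.23 in preparation 8, when they were called in the other 4, and 0.28 to 0.33 in the others.

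Upstream sequence was taken from RefSeq for named genes whose 250 bases before the start held a motif bound by CREB, by SRF or by Fos and Jun. The full CRE (TGACGTCA, bound by CREB) was in 1.62% of all 27025 mouse promoter windows of this length, the AP-1 site (TGANTCA, bound by Fos and Jun dimers) in 6.87% and the CArG box (bound by SRF) in 1.4%. All were searched on both strands. They are shown for the 3 largest rises and the 2 largest falls with such a match, 5′ to 3′ on the strand of the gene, ending at the base before its start (GRCm38.p6), with the match in capitals.
Serpinb2, chr1:107511173-107511422, AP-1 site: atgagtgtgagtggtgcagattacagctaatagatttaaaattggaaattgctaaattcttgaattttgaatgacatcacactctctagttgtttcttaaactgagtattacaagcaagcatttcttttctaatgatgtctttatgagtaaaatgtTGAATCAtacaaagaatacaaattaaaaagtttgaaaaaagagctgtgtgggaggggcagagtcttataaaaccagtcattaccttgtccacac
Tnfaip6, chr2:52037863-52038112, AP-1 site: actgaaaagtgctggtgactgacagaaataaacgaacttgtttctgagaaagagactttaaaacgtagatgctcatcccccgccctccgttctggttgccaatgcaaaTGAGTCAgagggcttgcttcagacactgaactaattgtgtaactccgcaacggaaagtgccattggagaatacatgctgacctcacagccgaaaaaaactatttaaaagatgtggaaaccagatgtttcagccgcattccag
Arl5b, chr2:15055070-15055319, full CRE: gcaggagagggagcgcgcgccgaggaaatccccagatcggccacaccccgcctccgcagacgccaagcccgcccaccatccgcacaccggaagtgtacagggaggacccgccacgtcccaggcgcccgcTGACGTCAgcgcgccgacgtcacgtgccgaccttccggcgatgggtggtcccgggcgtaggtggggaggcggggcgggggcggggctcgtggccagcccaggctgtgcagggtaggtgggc
Parp16, chr9:65214440-65214689, AP-1 site: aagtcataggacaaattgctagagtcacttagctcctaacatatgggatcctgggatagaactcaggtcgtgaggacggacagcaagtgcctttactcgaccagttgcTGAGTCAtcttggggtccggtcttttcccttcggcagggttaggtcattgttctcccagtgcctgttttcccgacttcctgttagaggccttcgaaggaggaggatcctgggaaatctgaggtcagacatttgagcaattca
Btg2, chr1:134079156-134079405, minus strand, full CRE: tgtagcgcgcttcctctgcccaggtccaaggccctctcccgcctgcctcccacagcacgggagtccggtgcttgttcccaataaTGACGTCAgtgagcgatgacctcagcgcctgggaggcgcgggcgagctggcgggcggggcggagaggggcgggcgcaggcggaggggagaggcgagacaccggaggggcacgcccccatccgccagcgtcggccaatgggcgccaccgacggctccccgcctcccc
The AP-1 match lies 94 to 88 bases before the start of Serpinb2 and 142 to 136 bases before those of Tnfaip6 and Parp16. The CRE match lies 121 to 114 bases before Arl5b and 166 to 159 bases before Btg2. Serpinb2, Tnfaip6 and Arl5b rose, and Parp16 and Btg2 fell. Only 77.3% of the protein-coding genes that rose had a window in the table, so a comparison of motif shares between rises and other genes is void.

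Of 26 tested secreted effectors 21 rose and 0 fell (median log2 fold change 0.55), where 11.0% of all genes tested rose and 12.5% fell. Without the block 13 rose. The list holds neuropeptides, growth factors, proteases and their inhibitors, and synapse organizers. Members of this and the other lists were chosen with earlier results of these data known, so the counts are a description. Beyond Serpinb2, Inhba and Penk, the largest was Nptx2, a secreted pentraxin that clusters AMPA receptors, at 962, 783, 1462, 1024 and 2238 normalized counts after 1 h and 3381, 2719.9, 4413, 2663 and 5114 after 2 h (1.54 ± 0.069, adjusted p = 5.3e-11). Every 2 h library was above every 1 h library. Bdnf, the neurotrophin that supports survival and plasticity, held 5333, 4150.5, 5926, 5760.4 and 5972 at 1 h and 9731, 8122, 9906, 9508 and 10375 at 2 h (0.82 ± 0.040, adjusted p = 1.5e-10). The dense-core vesicle proteins Scg2 (0.83 ± 0.046) and Vgf (0.60 ± 0.064) also rose, and so did the growth factors Bmp2 (1.21), Igf1 (0.40) and Vegfa (0.45). The peptides Adcyap1 (0.69), Tac1 (0.52) and Crh (0.83) were higher as well. Fgf2 (0.26), Fst (0.19), Timp1 (0.29), Nptx1 (0.06) and Pdyn (-0.05) did not pass the test.

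Synaptic effectors, which act inside the neuron on receptors, spines and excitability, rose in 18 of 22 tested cases with 0 down (median 0.64), and 17 rose without the block. After Frmd6 and Homer1 came Ptgs2, the inducible cyclooxygenase, with 1839.6, 1477, 1781, 1797 and 1015 normalized counts at 1 h and 5765, 6543, 5119.7, 4688 and 1617 at 2 h (1.51 ± 0.12, adjusted p = 4.7e-08). Its groups overlapped, because the 2 h library of preparation 8 was below the 1 h libraries of preparations 1, 6 and 7. The small GTPase gene Arl5b rose from between 3207 and 4485 at 1 h to between 9152 and 10922 at 2 h (1.32 ± 0.061), and Pcdh8, a protocadherin that drives removal of N-cadherin from synapses, from between 17042 and 24591 at 1 h to between 35876 and 45676 at 2 h (0.93 ± 0.062). The kinase gene Plk2 (0.65), the G protein regulators Rgs2 (0.64) and Rgs4 (0.55), the vesicle protein gene Syt4 (0.64) and the channel regulator gene Rem2 (0.64) also rose.

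Arc, which drives AMPA receptor endocytosis, was 1 of the 4 synaptic effectors that did not pass the test. It held 29716, 20543, 25013, 26013 and 37059.7 normalized counts at 1 h and 31478, 24951, 30721, 22391 and 21838 at 2 h (-0.06 ± 0.10, adjusted p = 0.73). It rose in preparations 1, 3 and 6 and fell in 7 and 8, and the groups overlapped. Its level had already gone from 710.0 ± 257 in controls to 14176 ± 1849.9 after 0.5 h (SD, n = 5). Without preparation 8 the estimate was 0.11 (adjusted p = 0.25, edgeR).

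Early transcription factors were still rising, with 21 of 26 up and 1 down (median 0.52). Without the block, 18 rose and 0 fell. Nr4a2, an orphan nuclear receptor, held 9084, 7744, 10454, 10471 and 11443 normalized counts at 1 h and 26246, 22506, 27319.5, 23743 and 24298 at 2 h (1.34 ± 0.056, adjusted p = 1.9e-11). The AP-1 genes rose throughout, with Fosl1 at 1.23 ± 0.15, Fosl2 at 1.12 ± 0.050, Fosb at 0.88 ± 0.081, Fos at 0.56 ± 0.077, Jun at 0.53, Junb at 0.51 ± 0.090 and Jund at 0.43, and so did the small Maf gene Maff (1.08). Npas4, a neuron-specific factor induced by calcium entry, held 45365, 32128, 39971, 45434 and 47917 at 1 h and 76938, 71246, 74536, 70263 and 52959.8 at 2 h (0.72 ± 0.088, adjusted p = 1.1e-05). Its 2 h libraries were all higher, with preparation 8 the lowest. Fos showed the same layout, with 33894, 27027, 33242, 33883 and 33296 at 1 h and 51254, 51399.9, 54384, 47219 and 35118 at 2 h, and preparation 8 moved least. Egr1 rose by 0.49 ± 0.074 and Nr4a1 by 0.46 ± 0.078, with overlapping groups. Egr2 (0.29 ± 0.11, adjusted p = 0.061), Klf4 (0.23), Ier2 (0.19) and Ier3 (0.20) did not pass the test, and Klf2 fell (-0.87 ± 0.17, adjusted p = 0.00085).

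**Figure D3:**
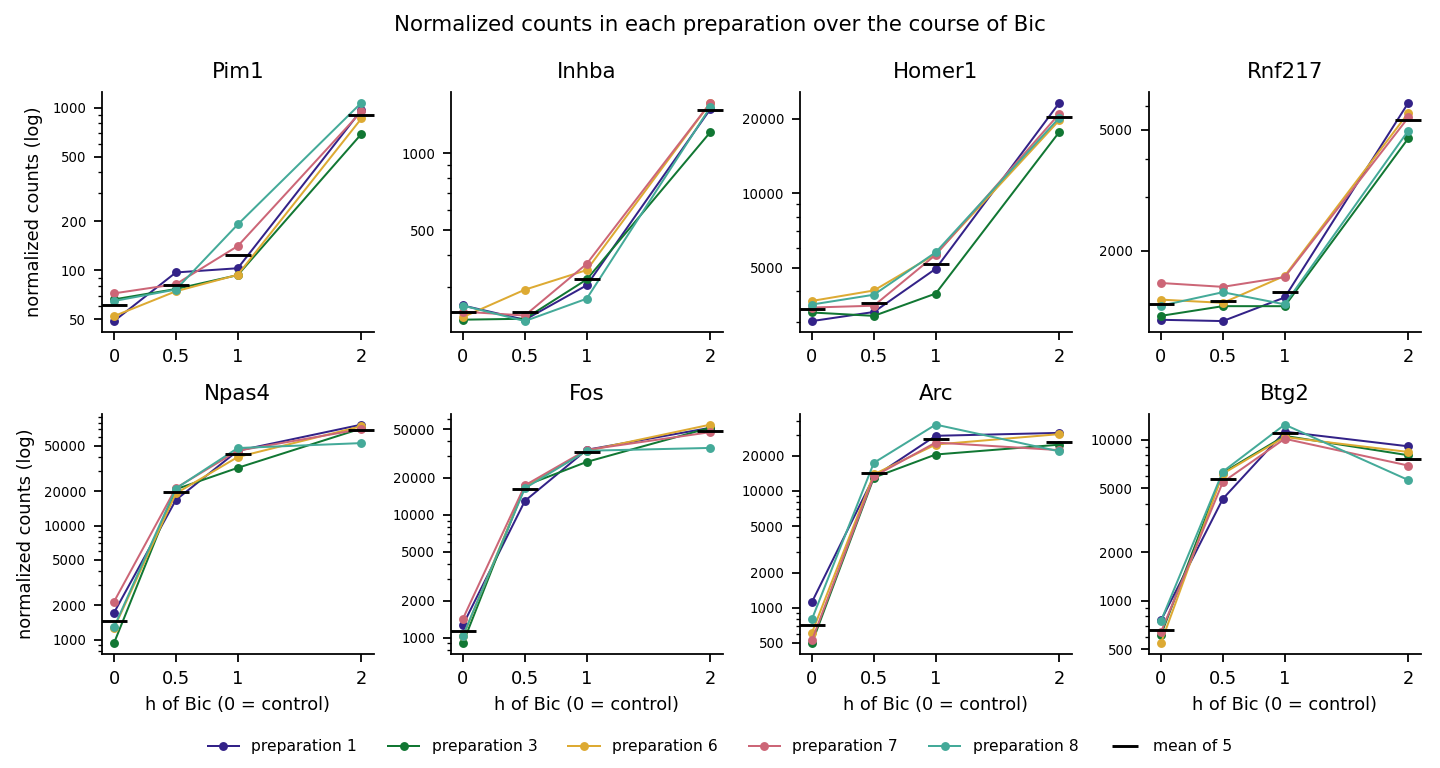
Each panel gives the normalized counts (log scale) of 1 gene in the 5 preparations at 0 (control), 0.5, 1 and 2 h Bic, with the mean of 5 as a black bar. Pim1, Inhba, Homer1 and Rnf217 rose mainly after 1 h, Npas4 and Fos had already risen by 0.5 h and were highest at 2 h, Arc levelled off and Btg2 fell after 1 h, furthest in preparation 8.

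The genes that had answered first were followed through the step. After 0.5 h Bic, 80 of 14783 genes were higher than in the controls (0.541%) and 0 were lower in edgeR's test, where 309 were lower at an unadjusted p under 0.05, and DESeq2 also called 0. This comparison shares no library with the step from 1 to 2 h, but it uses the same preparations. All 80 were tested in the step, where 52 rose (65%), 11 fell (13.8%) and 17 were not called, with a median log2 fold change of 0.51. Over all genes tested 11.0% rose and 12.5% fell, so the share that fell was near that of all genes. Among the 11 that fell were Btg2, which slows proliferation and speeds mRNA decay, its relative Tob1 (-0.76 ± 0.052), the matrix protein gene Ccn1 and the MAP kinase phosphatase gene Dusp1. Btg2 held 11230.5, 10574, 10398, 10147 and 12422 normalized counts at 1 h and 9106, 8013, 8400.5, 6915 and 5619 at 2 h (-0.54 ± 0.084, adjusted p = 0.00012), with no overlap. Ccn1 went from 12009, 9507, 9874, 10846 and 8911 to 8187, 8427, 7012, 5926 and 3285 (-0.70 ± 0.11, adjusted p = 0.00013), also without overlap and with preparation 8 lowest at 2 h. At 2 h both remained above the controls, with means of 7611 ± 1367 against 662 ± 89.9 for Btg2 and 6568 ± 2089.7 against 248 ± 54.2 for Ccn1 (SD, n = 5). Dusp1 fell in 4 of 5 preparations, from 6723 ± 795 to 5435 ± 931 (-0.31 ± 0.078, adjusted p = 0.0066), a call that was lost without the block.

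The step was then set against the one before it, from 0.5 to 1 h, in 1 model that tests the difference between the steps. The later step spans 1 h and the earlier 0.5 h, both use the 1 h libraries, and the differences are not rates per hour. Steps were compared with their sign, so a smaller step means a lower signed change and includes larger falls. In this sense the step was larger than the one before for 186 of 15543 genes (1.20%) and smaller for 145 (0.933%). Leaving out 1 preparation gave 98 to 163 and 41 to 120, and fewest without preparation 7, and leaving out 1, 3 or 7 moved both counts by over 1.5 times, as did leaving out 6 for the second. The named rises were chosen for a large step, which is part of this difference, so their values are a description. The difference was largest for Pim1 (difference 2.30 ± 0.22 on the log2 scale, adjusted p = 8e-06). Zfp516 (1.86 ± 0.12), Rnf217 (1.78 ± 0.12), Inhba (1.73 ± 0.14) and Frmd6 (1.64 ± 0.17) also had a larger step. Zfp516 held 491 ± 50.5 normalized counts at 0.5 h, 495 ± 52.8 at 1 h and 1809.6 ± 138 at 2 h (SD, n = 5), so nearly all of its rise lay in the last hour. Rnf217 moved likewise, with 1362 ± 135 at 0.5 h. Homer1 (1.46 ± 0.12), Nptx2 (1.06 ± 0.18) and the kinase gene Sik2 (0.94 ± 0.13) were also in this set. Aff1, a subunit of the super elongation complex (1.54 ± 0.11), and Pcsk1, the prohormone convertase that matures neuropeptides (1.17 ± 0.10), were picked out after their values were seen.

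Genes whose signed step was smaller than the one before included early genes and genes among the largest falls. Zfp39 had means of 243, 181 and 67.4 normalized counts at 0.5, 1 and 2 h, so its later step was the larger fall. Klf4, a zinc finger factor picked out after its values were seen, had the largest difference (-2.22 ± 0.26, adjusted p = 9.2e-05), with means of 327, 1798 and 2173 normalized counts at 0.5, 1 and 2 h. Among the named genes the next were Ccn1 (-1.86 ± 0.25), Btg2 (-1.47 ± 0.19), Dusp1 (-1.35 ± 0.18), Nup37 (-1.21 ± 0.21), Parp16 (-1.15 ± 0.29), Egr2 (-1.11 ± 0.25), Nr4a1 (-1.05 ± 0.21) and Arc (-1.0 ± 0.19). Tob1 (-1.195 ± 0.149), mentioned above for its fall, lay between Nup37 and Parp16. Of the 145, 131 fell in the later step, 6 rose and 8 were not called, a split that the later step itself favours as part of the difference. They also included Etaa1 and Zfp39 of the largest falls. For Npas4 (-0.36 ± 0.18, adjusted p = 0.45) and Fos (-0.43 ± 0.16, 0.25) the difference did not pass the test.

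Of 16 tested inhibitors of MAP kinase signaling (phosphatase, Sprouty and Spred genes), 9 rose and 2 fell (median 0.25), and without the block 6 and 1. Over all genes tested 11.0% rose and 12.5% fell, so the falls (12.5%) were at the share of all genes. Dusp14 rose from between 696 and 997 normalized counts at 1 h to between 1607 and 2669.6 at 2 h (1.27 ± 0.075, adjusted p = 1.5e-09), followed by Dusp16 (0.92 ± 0.091), Dusp4 (0.79 ± 0.052) and Spry2 (0.67 ± 0.046). Dusp7 fell (-0.52 ± 0.049) together with Dusp1. Of 28 further feedback genes that act on transcripts, kinases or transcription factors, 15 rose and 4 fell (median 0.24; 14 and 2 without the block). Here too the share that fell (14.3%) was near that of all genes. After Pim1 and Csrnp1 the largest rises were those of the kinase gene Sik2 (0.96 ± 0.057), the DNA damage and demethylation factor Gadd45b (0.96 ± 0.071) and Crem (0.90), which can repress CREB targets. Tob1, Btg2, Socs3 (-0.60) and Zfp36l2 (-0.25) fell.

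Of the 15 largest falls, 10 carry a symbol that begins with Zfp or Zkscan, the names of C2H2 zinc finger genes, a family of DNA-binding proteins of which many repress transposons and genes. Zfp712 held 82.8, 118, 114, 74.1 and 102 normalized counts at 1 h and 38.1, 35.3, 33.2, 27.1 and 58.8 at 2 h (-1.41 ± 0.15, adjusted p = 2.9e-06), and Zfp39 209.7, 184, 195, 145 and 170.0 and 58.9, 51.8, 79.1, 60.2 and 86.8 (-1.40 ± 0.12, adjusted p = 2e-07). In both the groups did not overlap. The other 5 encode Zc3hav1l (-1.30 ± 0.20), the replication stress protein Etaa1 (-1.17 ± 0.11), the ADP-ribosyltransferase Parp16 (-1.12 ± 0.17), the nuclear pore subunit Nup37 (-1.06 ± 0.13) and the poly(A) polymerase Papolg (-0.99 ± 0.076). Papolg held 491, 501, 544, 398 and 500.2 at 1 h and 228, 246, 235, 232 and 294 at 2 h, again with no overlap.

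The 1921 genes that fell were mostly of other kinds. Over all 352 tested genes named Zfp and a number, 197 fell (56%) and 19 rose (5.4%), with a median log2 fold change of -0.29, against 12.5% and 11.0% called over all genes. The median was below 0 in every preparation, at -0.27, -0.37, -0.32, -0.22 and -0.19 in preparations 1, 3, 6, 7 and 8. Without the block 154 fell and 12 rose. Relative to the controls, the median of the list was 0.0032 after 0.5 h, -0.11 after 1 h and -0.38 after 2 h. At least 1 of them fell on each of the 20 chromosomes that carry a tested member, and the median was below 0 on all 12 chromosomes with at least 10 members. The exceptions included Zfp516 and Zfp184, which rose from between 133 and 212 normalized counts at 1 h to between 437 and 682 at 2 h (1.56 ± 0.097, adjusted p = 2.5e-09). Reads that mapped to several places were not counted, so for near-identical members of this family the values rest on the parts of the transcript that differ. Levels of mRNA alone were measured, and synthesis and decay cannot be told apart.

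Chromatin enzymes leaned the same way, with 18 of 64 tested genes down (28.1%) and 9 up (14.1%; median -0.09). Over all genes tested 12.5% fell and 11.0% rose, so the rises were near that share. Without the block 9 fell and 5 rose, where 976 and 792 of all 15330 genes did. Without preparation 1, 10 of 65 fell, where 1568 of all 15540 genes did. Kdm4c, a histone demethylase, fell most, from between 629.7 and 735 normalized counts at 1 h to between 428 and 526 at 2 h (-0.53 ± 0.055). The histone methyltransferase genes Setd1b (-0.38), Kmt5b (-0.38), Setd2 (-0.36) and Kmt2b (-0.35) fell too. Kdm7a (1.11 ± 0.066) and Kdm6b (0.59 ± 0.047), also histone demethylases, rose.

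**Figure D4:**
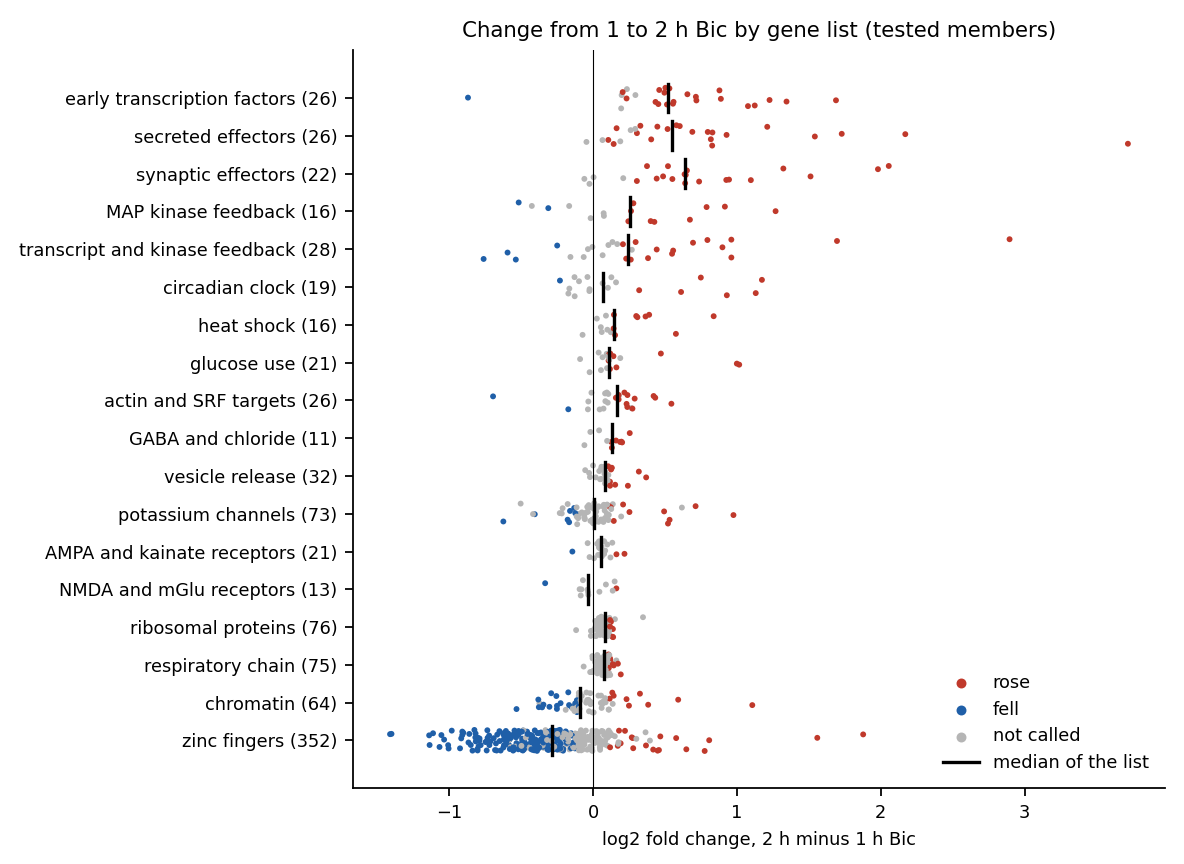
Each point is a tested gene of a list (number of members in parentheses). The x axis is the log2 fold change, 2 h minus 1 h Bic, and black bars are medians. Red points rose, blue points fell and grey points were not called. The effector and early transcription factor lists lie to the right with medians of 0.52 to 0.64, the zinc finger list lies to the left with a median of -0.29, and receptors, ribosomal proteins and the respiratory chain stay close to 0.

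Smaller sets of genes moved within other lists, where 11.0% of all genes tested rose and 12.5% fell. Among 19 circadian clock genes 6 rose and 1 fell (6 and 0 without the block). Rorb (1.17 ± 0.13), Nfil3 (1.13 ± 0.057), Per1 (0.93 ± 0.054) and Per2 (0.75 ± 0.058) rose most, while the core activator Clock fell (-0.23). Nfil3 held 2901, 2751, 3310.1, 3117 and 3648 at 1 h and 6999, 6977, 7542, 6387 and 6425 normalized counts at 2 h, without overlap. Of 16 heat shock genes 9 rose and 0 fell (4 without the block), among them Bag3 (0.57 ± 0.088) and Dnajb1 (0.39 ± 0.067). Hspa1b (0.84 ± 0.10) and Hspa1a (0.36 ± 0.097) are near-identical copies, and reads that fit both were not counted, so their values are uncertain. In glucose use 11 of 21 rose and 0 fell, and 4 to 6 rose when preparation 1, 6, 7 or 8 was left out. The 2 called without the block were the glucose transporters Slc2a1, at 1006, 1239, 941, 952 and 1271 normalized counts after 1 h and 2453, 2417, 2068, 1790.5 and 2204 after 2 h (1.01 ± 0.057), and the neuronal Slc2a3, at 9343, 9125, 8934, 9675 and 9195 and 19601, 18515, 18930.1, 18353 and 17129.7 (1.00 ± 0.038). Both were higher in all 2 h libraries. Pfkfb3, which makes the activator of glycolysis, rose by 0.47 ± 0.054, and the glycolytic enzymes that passed the test changed by at most 0.16. Of 26 actin and SRF target genes 12 rose and 2 fell (5 and 1 without the block), including Tpm4 (0.43 ± 0.056).

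Receptors and channels for fast signaling changed little. Of 21 AMPA and kainate receptor genes 2 rose and 1 fell, of 13 NMDA and metabotropic glutamate receptor genes 1 and 1, of 14 GABA-A receptor genes 2 and 0, of 11 sodium channel genes 1 and 1 and of 24 calcium channel genes 3 and 0. These shares are near those over all genes tested (11.0% and 12.5%) or below them, and with 1 preparation left out none of these lists had more than 3 calls in a direction. Of these calls only that of Grm7 (-0.33 ± 0.049), a presynaptic glutamate receptor that fell, was also made without the block. Of 73 potassium channel genes 10 rose and 7 fell (3 and 2 without the block, 6 and 2 without preparation 3, and 3 down without preparation 1). Kcnf1, an electrically silent subunit, rose from between 1815 and 3087 normalized counts at 1 h to between 3165 and 4529 at 2 h (0.71 ± 0.042), and Kcnv1, another one, fell from between 779.9 and 911 at 1 h to between 474 and 649 at 2 h (-0.63 ± 0.072). Kcna1 rose (0.52) and the inward rectifier Kcnj2 fell (-0.41).

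GABA synthesis and transport genes rose slightly, with 7 of 11 up and 0 down (median 0.13), though 1 rose without the block and 4 without preparation 3. Gad1 rose by 0.20 ± 0.041 and Slc32a1, the vesicular GABA transporter, by 0.20 ± 0.059, while Slc12a2, the chloride importer, rose by 0.25 ± 0.045. Of 9 markers of inhibitory neurons 6 rose (0 without the block, and 3 without preparation 3 or 6), including Sst (0.33 ± 0.081), and their sum spanned 53389 to 72496 normalized counts at 1 h and 57542 to 81863 at 2 h. In such mixed cultures a larger share of these cells and more mRNA per cell cannot be told apart. Vesicle release genes had 10 of 32 up and 0 down, 1 up without the block and 4 or 5 up when preparation 3, 6, 7 or 8 was left out. Ribosomal proteins had 9 of 76 up (median 0.079) and the respiratory chain 8 of 75 (median 0.076), with 0 down, near the 11.0% of all genes tested that rose. Neither had a call without the block, and leaving out preparation 1, 3, 6 or 7 left 1 or 2 and 2 to 5.

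The last hour can also be read against cultures in which AP firing was stopped for that hour, as both had 2 h in total. Between 2 h Bic and 1 h Bic followed by 1 h with TTX, 2528 of 15570 genes were higher with firing (16.2%) and 2450 lower (15.7%). The first count was 1590 without preparation 6 and 1388 without preparation 7. This comparison uses the same 2 h libraries as the step, from which the named genes were chosen, so values are set side by side and no count over the named rises or falls is drawn. Pim1 held 908 ± 144 normalized counts with firing and 383 ± 56.3 with TTX (1.26 ± 0.072, adjusted p = 2.9e-10), still above the 1 h mean of 125. Penk (1.20 ± 0.077) and Tnfaip6 (1.04 ± 0.084) were also higher with firing. Homer1 was lower with firing, at 20373 ± 2002 against 26121 ± 2226 (-0.34 ± 0.047, adjusted p = 2.6e-05), and so were Stil (-0.26 ± 0.059), Sertad1 (-0.34 ± 0.053), Zfp516 (-0.19 ± 0.051) and Rnf217 (-0.16 ± 0.047). Bdnf (-0.05 ± 0.041, adjusted p = 0.35) and Arl5b (0.01 ± 0.041, 0.88) did not pass the test.

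Early genes that were no longer rising were also compared with the TTX cultures. Btg2 was 7611 ± 1367 normalized counts with firing and 1259 ± 346 with TTX (2.63 ± 0.075), Ccn1 6568 ± 2089.7 and 256 ± 63.1 (4.66 ± 0.059), and Dusp1 and Arc differed by 2.25 ± 0.054 and 1.75 ± 0.056. The untreated means were 662 for Btg2 and 248 for Ccn1, so that with TTX Ccn1 was near its untreated level and Btg2 above it. Of 353 zinc finger genes tested here, 191 were lower and 34 higher with firing, where 15.7% of all genes were lower and 16.2% higher. The 2 h libraries are those of the step, in which this list fell. Relative to the controls, the median of the list was -0.38 after 2 h Bic and -0.16 with TTX. Of the largest falls, Zfp712 had means of 38.5 normalized counts with firing and 86.5 with TTX (-1.18 ± 0.15, adjusted p = 8.2e-06), and Parp16 (0.02 ± 0.15), Nup37 (0.10 ± 0.15), Zc3hav1l (-0.13 ± 0.19) and Zfp879 (-0.40 ± 0.15) did not pass the test.

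Genomic span, the distance from the first to the last base of a gene, is given for groups of protein-coding genes as a description, without a test. The 181 genes that rose with a larger step than before had a median span of 61.6 kb, the other 1383 that rose 23.8 kb, the 1884 that fell 29.6 kb and all 13697 tested 26.6 kb. The 74 genes already raised after 0.5 h had a median span of 5.8 kb. Of genes of 40 to 80 kb 18.4% of 2299 fell, against 9.99% of 1371 under 5 kb and 4.57% of 481 over 320 kb. These shares changed with the level of counts. When the genes were divided into 3 classes of mean count, 12.9%, 30.3% and 12.5% of genes of 40 to 80 kb fell at low, middle and high counts, and the bin with the most falls was 20 to 40 kb at low counts (15.4%) and 80 to 160 kb at high counts (14.1%). Read counts also move with the groups above, since the genes raised after 0.5 h had a median of 3520 normalized counts and the rises with a larger step 1452. The part of read counts in these median spans was not tested.

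**Figure D5:**
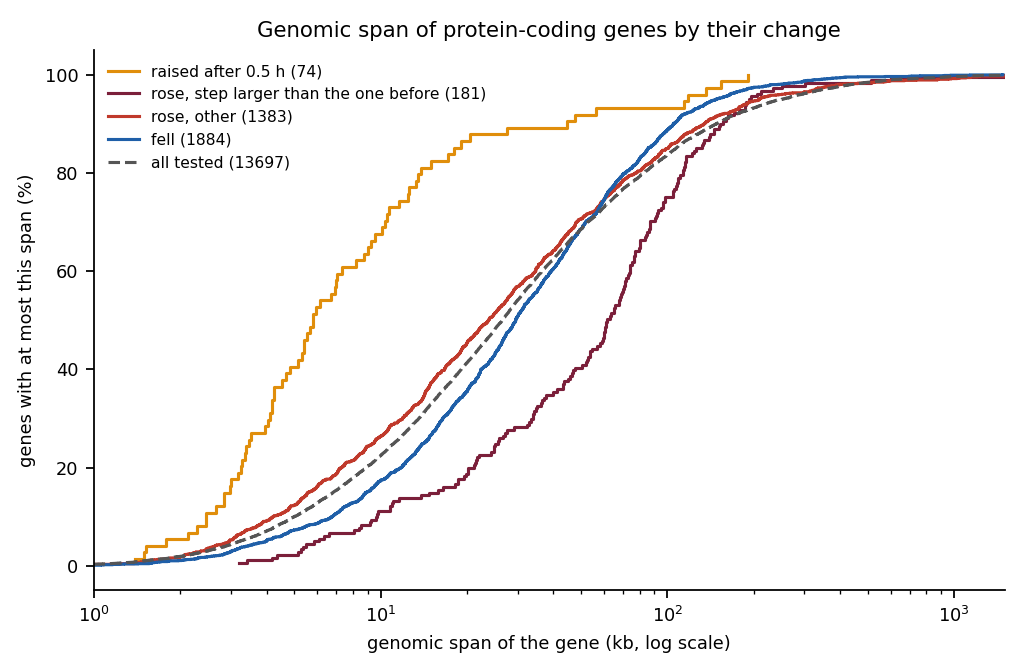
The x axis is the genomic span of protein-coding genes in kb (log scale) and the y axis the percentage of genes with at most that span. The line of the 74 genes raised after 0.5 h lies to the left (median 5.8 kb), that of the 181 genes whose rise was larger than the step before lies to the right (median 61.6 kb), and the dashed line of all 13697 tested genes lies between them.

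Among the genes outside the protein-coding class, the host locus of a pair of microRNAs rose. The Mir132 model had 129, 103, 90.3, 116 and 137 normalized counts at 1 h and 299.5, 174, 247, 199 and 276 at 2 h (1.06 ± 0.10, adjusted p = 9.3e-07), and the Mir212 model 149, 88.6, 108, 139 and 165 and 331, 206, 255, 252 and 321 (1.08 ± 0.086, adjusted p = 5.5e-08). In both the groups did not overlap, and they were picked out after their values were seen. Both are products of 1 activity-induced precursor on chromosome 11, and these reads come from poly-A RNA that covers the hairpins, not from mature microRNAs. The mature 3p sequences (RefSeq, GRCm38.p6, plus strand) share their seed, bases 2 to 8, which is in capitals.
mmu-miR-132-3p, chr11:75173723-75173744: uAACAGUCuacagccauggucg
mmu-miR-212-3p, chr11:75173443-75173464: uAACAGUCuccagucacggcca
Of 445 lincRNA genes 32 rose (7.19%) and 18 fell (4.04%), and of 351 antisense genes 22 rose and 4 fell, where the shares of protein-coding genes were 11.4% and 13.8%.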

How the data were processed

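RNA was measured in 45 libraries. The authors enriched poly-A RNA, prepared strand-specific libraries, read them single-end with 75 cycles, and aligned them with STAR 2.5.4b to GRCm38 with an Ensembl annotation. They deposited raw counts per gene from featureCounts 1.6.5, set to the strand of the transcript and leaving out multi-mapping reads and reads shared between genes. Depth ranged from 17229802 to 44206367 counts in the 10 libraries of the step. From these counts, edgeR 4.0.16 (R 4.3.3) fitted each comparison on its own libraries with TMM, filterByExpr (minimum count 10), culture preparation as a block and Benjamini-Hochberg adjustment over all genes tested, with a threshold of 0.05. Same-numbered libraries deviated together, with correlations of 0.31 to 0.63 across 13627 genes, and the labels give the number as the culture preparation. Single-preparation log2 values used a pseudocount of 1.

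Named were the 15 largest rises and falls that were called, had a mean of at least 50 normalized counts and moved the same way in all 5 preparations, up to 4 called members of each list, and 17 well-known genes. Models without a gene name were left out, and some genes the rule named are not reported here. The members and lists were chosen with earlier results of these data known. On simulated counts the step fit recovered 86.6% of genes changed by a log2 of 0.5 and 98% of those changed by 1 among 15200 genes, and 4.21% of its calls were false. For the step difference, 52% and 80% were recovered among 15402 genes and 9.03% of calls were false. Alternatives were no block, no filter, DESeq2 1.42.0, DESeq2's size factors, 1 fit of all 45 libraries, and each preparation left out. Positions come from GENCODE M21.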

Additional observations from a re-analysis of the deposited data

Results flagged for a closer look

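Among 135 sets of 5 values (45 genes, each at 1 h, at 2 h and as the step), 7 held 1 library far from the other 4, by a gap of over 0.71 of the set's range. Chance flags about 1 in 20 sets, and 5.19% were flagged. Preparation 8 was the library apart in 4 of the 7. It was high for Serpinb2 at 1 h, with 36.3 normalized counts against at most 5.52 in the others, and for Papolg at 2 h, with 293.7 against at most 246. It was low at 2 h for Tnfaip6, with 182.6 against at least 306, and for Npas4, with 52960 against at least 70263. Preparation 7 was high for Serpinb2 at 2 h, with 183.6 normalized counts against at most 98.7. Preparation 3 was low for Inhba at 2 h, with 1213 against at least 1492, and for Fos at 1 h, with 27027 against at least 33242.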

How the results depend on the processing

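Direction was stable and the number of calls was not. No gene called in the step changed sign under any of the 12 alternatives. Without the replicate block the step called 792 genes up and 976 down on the same genes, 49% of the calls with it, 785 and 867 over all genes with at least 1 read, and 901 and 1089 in DESeq2 over those same genes. DESeq2 with the block, on the 15330 genes of the filtered table, called 1370 and 1357. The other comparisons without the block gave 63 and 34 (step difference), 62 and 0 (0.5 h Bic against the control) and 706 and 1006 (2 h Bic against TTX). With the block but over all genes with at least 1 read, the step difference gave 288 and 257 and the 0.5 h comparison 147 and 18. Leaving out 1 preparation gave 1324 to 1525 up and 1530 to 1777 down for the step, 98 to 163 and 41 to 120 for the step difference, 55 to 103 and 0 to 2 for the 0.5 h comparison, and 1388 to 2662 and 1695 to 2954 for the TTX comparison. Preparations 1, 3 and 7 moved the step difference by over 1.5 times in both directions (118, 108 and 98 up, 61, 64 and 41 down) and preparation 6 in its falls (72). Without preparation 6 or 7, 66.8% or 70.5% of its calls were up, against 56.2% with all. In the TTX comparison the rises numbered 1590 without preparation 6 and 1388 without preparation 7, and the 2 falls at 0.5 h appeared without preparation 3. For the 152 named genes, 1541 of 1824 alternative values kept direction and call, 280 lost the call, 2 gained it (Egr2) and 1 reversed, Arc without preparation 8 (0.11, adjusted p = 0.25), where its estimates with 1 preparation left out ran from -0.158 to 0.11. The cause of these changes was not tested. Genes of few reads limit precision, as for Serpinb2, whose log2 fold change ranged from 3.25 to 4.91 when 1 preparation was left out.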

Other observations

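By chromosome, the X chromosome had 88 genes that rose and 26 that fell among 520 tested (16.9% and 5%), against 11.0% and 12.5% over all genes. On chromosome 4 the order was the other way, with 65 up and 116 down among 930 (6.99% and 12.5%). Both were picked out after the values of all chromosomes were seen, and neither was tested. Of 8 tested zinc finger genes on the X chromosome 1 fell and 2 rose.

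Of 22 tested genes of Notch and BMP signaling 4 rose and 3 fell. Smad7, an inhibitor of TGF-beta signaling, rose from between 463 and 723 normalized counts at 1 h to between 871 and 1295 at 2 h (0.74 ± 0.068, adjusted p = 4e-07), and the Notch ligand Dll1 fell from between 195 and 212 at 1 h to between 122 and 170.4 at 2 h (-0.48 ± 0.089, adjusted p = 0.00059). In both the groups did not overlap. Axon guidance genes had 10 of 62 up and 4 down, where 11.0% and 12.5% of all genes were called, with 4 and 2 without the block and 6 up in 1 fit of all 45 libraries. Those named were Sema4c (0.74 ± 0.051), Ephb3 (0.51 ± 0.059) and Efnb2 (0.50 ± 0.048). Matrix genes had 9 of 51 up and 3 down, and 1 and 0 without the block. Of 27 postsynaptic scaffold genes 5 rose and 2 fell (3 and 1 without the block), with Nlgn3, a neuroligin, down by -0.36 ± 0.059. Of 29 splicing genes 7 rose and 2 fell (4 and 0 without the block), and Srrm4, the neuronal splicing activator, rose by 0.44 ± 0.039. Of 22 integrated stress response genes 5 rose, and 0 without the block, while Trib3 fell (-0.44 ± 0.12), a call lost without the block (adjusted p = 0.44), in 1 fit of all 45 libraries (0.17) and without preparation 1 or 3. Cholesterol synthesis genes had 5 of 22 up (3 without the block), among them Cyp51 (0.30 ± 0.036). The 20 ER chaperone genes had 5 up and 1 down, and 1 and 1 without the block. Leaving out 1 preparation gave 3 to 9 rises in the stress list (9 without preparation 3 and 3 without 6), 3 or 4 in cholesterol synthesis, 2 to 4 among ER chaperones, and 3 to 5 among scaffolds. The proteasome (1 up and 2 down of 37), tRNA synthetases (2 and 1 of 20) and 7 tested mitochondrial mRNAs (0 and 0) changed little. Oligodendrocyte lineage markers had 1 up and 1 down of 7, markers of dividing cells 1 up of 8 and excitatory markers 2 up and 1 down of 8.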
